A study of Mus musculus with 25 samples.

Results

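The genes examined here make, load, recapture and break down acetylcholine, the transmitter of spinal motor neurons. They are the rows *Chat*, *Slc18a3*, *Slc5a7*, *Slc10a4*, *Ache*, *Bche* and *Prima1* of the count table, 7 of its 50559 genes, chosen by name. All 7 passed the filter on low counts, which kept 21738 genes (10 counts or more over the IP libraries together). Transcripts bound to cholinergic neuron ribosomes were isolated from whole spinal cord of male C57BL/6J mice at 6 mo of age, with 1 cord per library. Controls carried *ChAT-Cre* and RiboTag fx/+, and *ChAT-BKO* mice carried *ChAT-Cre*, RiboTag fx/+ and *Bmal1* fx/fx, so that *Bmal1*, an activator of the circadian clock, is deleted in cells that express Cre. Each genotype was collected at ZT8, in the light period, and at ZT20, in the dark period, with 6 mice in each of the 4 groups, which gave 24 immunoprecipitated (IP) libraries. One further library was a pooled input, spinal cord RNA of both genotypes taken before the IP. Cre is expressed from the *Chat* locus itself in both genotypes, the controls carry no floxed *Bmal1*, and the IP collects every cholinergic cell type of the cord.

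Acetylcholine is made from choline and acetyl-CoA by choline acetyltransferase, the product of *Chat*. The vesicular transporter VAChT, encoded by *Slc18a3*, exchanges protons for acetylcholine to fill synaptic vesicles, and acetylcholinesterase (*Ache*) splits the released transmitter. The high-affinity choline transporter CHT1 (*Slc5a7*) returns the choline to the terminal, the step that usually limits synthesis. *Slc10a4* encodes an orphan carrier-like protein of the membrane of cholinergic and monoaminergic vesicles. *Bche* encodes butyrylcholinesterase, a second and less selective esterase, and *Prima1* encodes the membrane anchor that holds acetylcholinesterase tetramers on the surface of neurons.

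Total counts were 4.04 to 31.7 M per IP library and 7.397 M in the input. Levels are given as CPM, read counts scaled to a common library size, and a count of 0 allows a level of up to 3 counts, or 0.0947 to 0.743 CPM depending on the library, for counting error only. *Arntl*, the symbol of *Bmal1* in the table, fell from 8.44 ± 1.43 to 2.64 ± 0.538 CPM at ZT8 (SD, n = 6) and from 8.73 ± 1.18 to 1.92 ± 0.515 CPM at ZT20, and the genotypes did not overlap at either time. Its log2 fold change was -1.64 at ZT8 (SE 0.16, adjusted p = 1.56e-05 from edgeR) and -2.08 at ZT20 (SE 0.161, adjusted p = 1.98e-07 from edgeR). Motor neuron markers were above the input in the IP (3 of 3, median log2 ratio 4.32). Markers of astrocytes, oligodendrocytes, microglia, endothelial cells, fibroblasts, Schwann cells and skeletal muscle were all below it, with medians of -3.88, -3.19, -3.85, -3.56, -2.8, -3.53 and -1.77. Of 6 markers of other neurons, 1 was above the input (median -1.32). The summed muscle markers differed most between libraries, from 1.29 to 132 CPM, and no marker of any list was at 0. Replicate 5 of the ZT8 controls and replicate 3 of the ZT20 *ChAT-BKO* group had the steepest relation of level to transcript length among the 24 libraries, with slopes of 0.3644 and 0.3701 against 0.1626 in the library with the lowest.

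*Chat* and *Slc18a3* share a locus. *Chat* (chr14:32408203-32465989, minus strand, GRCm38) has 8 annotated transcripts, and *Slc18a3* (chr14:32462438-32464850) is a gene of a single exon, on the same strand, inside the first intron of the full-length *Chat* transcript. The pair shares 0 bases of exon. *Slc5a7* lies at chr17:54273590-54299034, *Slc10a4* at chr5:73006883-73012955, *Ache* at chr5:137287519-137294466, *Bche* at chr3:73635808-73708415 and *Prima1* at chr12:103196908-103242150, all protein-coding. *Ache* shares 98 exon bases with *Gm42456*, a noncoding gene on the opposite strand, and since the strand setting of the counting is not given in the sources used here, reads in this stretch cannot be assigned to one or the other.

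The heterodimer of CLOCK and BMAL1 binds the E-box CACGTG, so the promoters of the 7 genes were searched for it. In the RefSeq windows of GRCm38.p6, which run from 250 bases before to 50 bases after each start site, the word CACGTG, the same on both strands, was found in *Chat* and *Ache* and not in the other 5 genes. It occurs in 7.15% of 32851 such windows. The D-box word TTACGTAA (0.119% of windows) and the E-box-like CACGTT (4.68%), searched on both strands, were in none of the 7. The 2 stretches with the E-box are shown since *Bmal1* is the deleted gene, 5′ to 3′ on the strand of the gene, with CACGTG in capitals.
Chat, chr14:32465990-32466052, minus strand: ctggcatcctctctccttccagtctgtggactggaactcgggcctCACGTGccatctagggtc
Ache, chr5:137288055-137288105, plus strand: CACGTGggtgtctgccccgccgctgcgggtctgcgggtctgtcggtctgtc
The E-box lies at position -98 from the start site in *Chat* and at -199 in *Ache*, where 3 of its bases fall in an annotated exon, of *Ache* or of another gene. These matches describe the sequence only, and binding was not measured in these libraries.

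The first question was whether the IP holds these genes as cholinergic transcripts. Of the 7 genes, 6 were enriched over the input in 24 of 24 IP libraries, and *Bche* was depleted in 24 of 24. The vesicle genes led, with a mean log2 ratio of 4.01 ± 0.0683 for *Slc10a4* (SD over 24 libraries) and 3.91 ± 0.078 for *Slc18a3*, a fold of 16.1 and 15.1. *Chat* was at 2.77 ± 0.378, *Ache* at 2.47 ± 0.0663, *Slc5a7* at 2.30 ± 0.221 and *Prima1* at 1.43 ± 0.0802. The ratios of the first 2 exceed those of 99.8% of the 13692 genes with at least 1 CPM and counts in the input, and that of *Prima1* exceeds 89.6% of them, while the median gene was at 0.136. *Bche* was at -4.32 ± 0.599, below the medians of the astrocyte, oligodendrocyte and microglia markers. The input is 1 library, so these ratios have no test, and with CPM on total counts each mean shifts by -0.453, which changes the direction of none of the 7 genes in any library.

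**Figure D1:**
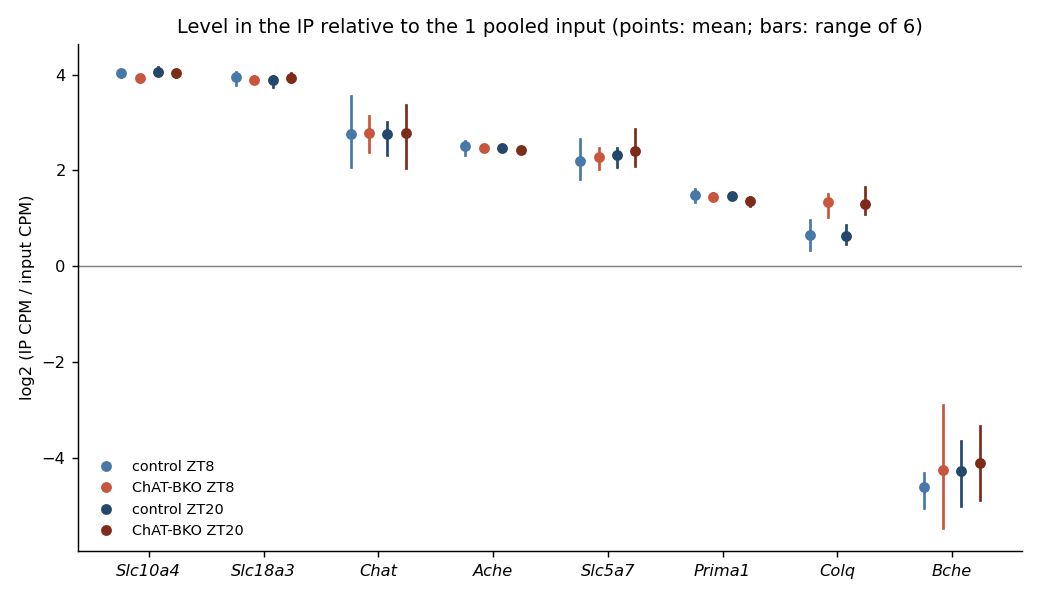
Log2 ratio of the level in the IP to that in the 1 pooled input (vertical axis) for the 7 genes and Colq (horizontal axis), with points for the mean and bars for the lowest to highest of the 6 libraries of each group. For 6 of the 7 genes and for Colq the points lie above 0 in all 4 groups, Slc10a4 and Slc18a3 near 4, and Bche lies below -2.9 throughout.

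Levels of different genes were compared as CPM per kb of exon. *Slc18a3* was the highest, at 338.4 ± 18.0 CPM per kb (SD over 24 IP libraries), above 99.4% of the 18934 genes with a length. It was followed by *Ache* at 222.5 ± 10.3, *Slc10a4* at 172.6 ± 8.28, *Prima1* at 130.8 ± 6.89, *Slc5a7* at 51.1 ± 8.03, *Chat* at 18.68 ± 4.82 and *Bche* at 0.0625 ± 0.0288 CPM per kb. Each gene was above the next in 24 of 24 libraries, and neighbours did not overlap across the libraries. The transcript of the synthesizing enzyme was therefore below those of the loading, uptake and anchoring proteins per length. With the longest transcript in place of all exons the order was the same, but 3 pairs of neighbours then overlapped across libraries, namely *Slc18a3* with *Ache*, *Slc10a4* with *Prima1* and *Slc5a7* with *Chat*, and *Chat* was at 30.7 CPM per kb.

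The next question was whether these genes change when *Bmal1* is deleted. None of the 7 was differentially expressed (adjusted p under 0.05 in edgeR), at either time point. At ZT8, 0 of 7 were called where 0.184% of all genes tested were, and 0 of 7 had an unadjusted p under 0.05, as 4.83% of all genes did. At ZT20, 0 of 7 were called beside 0.23% of all genes, and *Prima1* was the 1 gene with an unadjusted p under 0.05, which 6.28% of all genes had. Over both time points, with time of collection as a covariate, 0 of 7 were called beside 0.741% of all genes, with *Prima1* again the 1 gene under 0.05 unadjusted, which 7.04% of all genes were. DESeq2 and limma voom called 0 of 7 in each of these comparisons. The genotypes overlapped in all 7 genes at both times, beside 0.57% of all genes without overlap at ZT8 and 0.506% at ZT20. With shares this small, 0 of 7 called or without overlap is no result about these 7 genes. The median log2 fold change of the 7 was -0.03 at ZT8 and 0.04 at ZT20, and that of all genes was 0.00013 and -0.0065. Levels are shares of each library, and fewer cholinergic neurons cannot be told apart from less RNA per neuron.

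**Figure D2:**
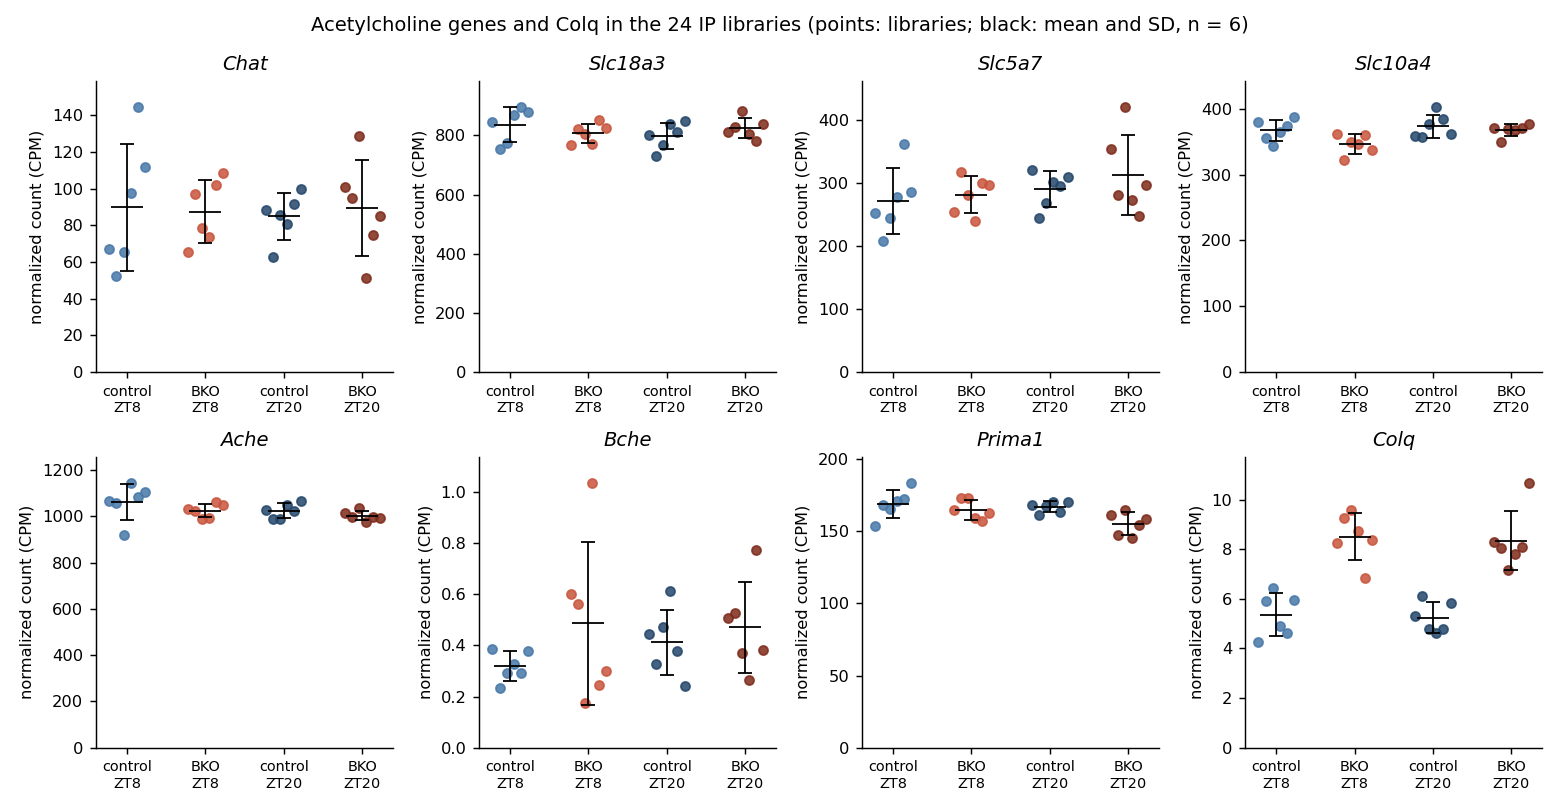
Normalized count (CPM, vertical axes from 0) of the 7 genes and Colq in each IP library, by genotype and time of collection (n = 6 per group), with the mean and SD in black. The genotypes overlap at both times in the 7 genes, Chat is the most scattered of the 6 abundant ones, and of the 8 genes drawn Colq alone is higher in every ChAT-BKO library than in every control of its time.

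*Chat*, the gene of acetylcholine synthesis, was at 52.4 to 144 CPM in controls at ZT8 (median 82.4) and at 65.5 to 109 CPM in *ChAT-BKO* neurons (median 87.7). At ZT20, controls ranged from 62.5 to 100 CPM (median 87.0) and *ChAT-BKO* neurons from 51.5 to 129 CPM (median 89.9). The medians lay close together and the ranges overlapped at both times. The log2 fold change with deletion was -0.03 at ZT8 (SE 0.195) and 0.08 at ZT20 (SE 0.15). With each library's slope of level on transcript length as a covariate, the estimate at ZT20 turned to -0.11 (95% interval -0.234 to 0.0116, adjusted p = 0.633 from edgeR). Over both times the fold was 1.02 with a 95% interval of 0.841 to 1.23 (adjusted p = 1 from edgeR), so these libraries leave room for a change of either sign within that interval.

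The loading genes were held within far narrower limits. *Slc18a3* was at 754 to 894 CPM in controls and 768 to 850.5 CPM in *ChAT-BKO* neurons at ZT8, and at 729 to 847 and 782 to 883 CPM at ZT20. Its fold over both times was 0.998 (95% interval 0.951 to 1.05, adjusted p = 1 from edgeR), the estimate nearest to 1 of the 7. Within a library, the log2 ratio of *Slc18a3* to *Chat*, genes of 1 locus, differed between genotypes by -0.08 at ZT8 and 0.01 at ZT20 (exact permutation test, two-sided, p = 0.721 and p = 0.946). *Slc10a4* was at 343.5 to 387 CPM in controls and 321 to 361.5 CPM in *ChAT-BKO* neurons at ZT8, and at 357.5 to 402 and 350 to 376.5 CPM at ZT20. The *ChAT-BKO* values reached lower at both times, but the groups overlapped. Its fold over both times was 0.962 (95% interval 0.922 to 1.00, adjusted p = 0.775 from edgeR).

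For choline uptake, *Slc5a7* was at 207 to 361 CPM in controls (median 265) and 239 to 316.5 CPM in *ChAT-BKO* neurons (median 288) at ZT8. At ZT20 it was at 244 to 321 CPM (median 298) and 248 to 419 CPM (median 289). Both medians moved little against these ranges. The log2 fold change was 0.06 at ZT8 (SE 0.104) and 0.11 at ZT20 (SE 0.101), and the fold over both was 1.06 (95% interval 0.947 to 1.18, adjusted p = 0.935 from edgeR).

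Of the esterases, *Ache* was abundant and *Bche* was close to the limit of detection. *Ache* was at 918 to 1143 CPM in controls and 990 to 1061 CPM in *ChAT-BKO* neurons at ZT8, and at 988 to 1067 and 976 to 1034 CPM at ZT20. The *ChAT-BKO* range lay within that of the controls at ZT8 and overlapped it at ZT20. Its fold over both times was 0.971 (95% interval 0.932 to 1.01, adjusted p = 0.885 from edgeR). *Bche* had 1 to 17 counts per IP library, a median of 4, and 8 of the 24 libraries held 3 counts or fewer. Summed over the IP libraries it had 130 counts, or 0.427 CPM on total counts, against 78 counts (95% Poisson interval 61.7 to 97.4) or 10.5 CPM in the input. A change of *Bche* within cholinergic neurons was not detectable at this depth, with a fold over both times of 1.35 and a 95% interval of 0.929 to 1.96 (adjusted p = 0.846 from edgeR).

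Of the anchors of acetylcholinesterase, *Colq* rose with deletion and *Prima1* did not pass the test. *Prima1* was at 154 to 183 CPM in controls and 157 to 173 CPM in *ChAT-BKO* neurons at ZT8, and at 162 to 171 and 145 to 165 CPM at ZT20. At ZT20, 5 of the 6 *ChAT-BKO* libraries were below the lowest control, the nearest at 161.5 against 161.6 CPM, and 1 lay among the controls. The log2 fold change at ZT20 was -0.11 (SE 0.0476), a fold of 0.928 with a 95% interval of 0.866 to 0.994, and it did not pass the adjustment over all genes (adjusted p = 0.763 from edgeR, 0.0751 to 0.95 over 9 other settings). Measured within each library, the log2 ratio of *Prima1* to *Ache* at ZT20 was -2.62 ± 0.0317 in controls and -2.69 ± 0.0513 in *ChAT-BKO* neurons (SD, n = 6), with ranges that met only between -2.649 and -2.644. The mean ratios differed by -0.07 (exact permutation test, two-sided, p = 0.00433, adjusted over 12 ratio tests p = 0.0173). This difference exceeded the SD of either group. With each library left out in turn it ran from -0.0825 to -0.0602 (exact permutation test, p = 0.00433 to 0.00866) and stayed under 0.05 adjusted over the 12. Those 12 include the ratios of *Colq* to *Ache*, added with earlier results of these data known, whose small p-values lower this adjusted p. An adjustment without them was not made, so the adjusted p is no measure of robustness. At ZT8 the same ratio differed by 0.01 (exact permutation test, p = 0.807), and whether the times differ was tested only for *Prima1* itself, where the difference of the genotype effects was -0.07 (SE 0.0642, adjusted p = 1 from edgeR).

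The other anchor, *Colq*, is no member of the set. It encodes the collagen tail that holds acetylcholinesterase in the basal lamina of the neuromuscular junction. It was added with earlier results of these data known, and the paper already names it among genes upregulated in *ChAT-BKO* neurons. The tests of *Colq* below use the same libraries and are no independent support. *Colq* was at 4.26 to 6.45 CPM in controls and 6.85 to 9.59 CPM in *ChAT-BKO* neurons at ZT8, and at 4.63 to 6.11 and 7.18 to 10.7 CPM at ZT20. It rose at both times without overlap, by a fold of 1.59 over both (95% interval 1.42 to 1.78, adjusted p = 3.08e-06 from edgeR). At single times the adjusted p from edgeR was 0.0189 at ZT8 and 0.024 at ZT20. It rose above 0.05, so that *Colq* was no longer called, when 1 of 4 libraries was left out at ZT8 (control replicates 1 and 4, *ChAT-BKO* replicates 2 and 3, highest 0.0817). The same held for 1 of 7 libraries at ZT20 (control replicates 1, 3, 4 and 5, *ChAT-BKO* replicates 1, 2 and 6, highest 0.0977), with the log2 fold change between 0.58 and 0.66 in each of these fits. The log2 ratio of *Colq* to *Ache* was higher in *ChAT-BKO* neurons by 0.71 at ZT8 and by 0.68 at ZT20 (exact permutation test, two-sided, p = 0.00433 and p = 0.00216, the smallest that 6 against 6 can give, adjusted p = 0.0173 for both). The other 9 of the 12 ratio tests, which include *Slc5a7* to *Chat*, *Slc10a4* to *Slc18a3* and *Bche* to *Ache*, had adjusted p-values from 0.396 to 0.946. *Colq* was above the input in 24 of 24 libraries (mean log2 ratio 0.98 ± 0.388) and in 23 of 24 with CPM on total counts (lowest ratio -0.14). Its input level rests on 34 counts (95% Poisson interval 23.6 to 47.5). Of the muscle markers, 6 of 6 were below the input. The summed muscle markers ranged from 1.29 to 87.8 CPM in controls and 3.14 to 132 CPM in *ChAT-BKO* libraries at ZT8, and from 5.34 to 22.1 and 3.70 to 79.8 CPM at ZT20. The ranges overlapped, but the medians did not move alike, from 22.0 in controls to 4.66 CPM in *ChAT-BKO* libraries at ZT8 and from 8.496 to 54.7 CPM at ZT20. The muscle markers were thus higher by median beside the higher *Colq* at ZT20 and lower beside it at ZT8, and the part of muscle RNA in the *Colq* difference was not tested.

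**Figure D3:**
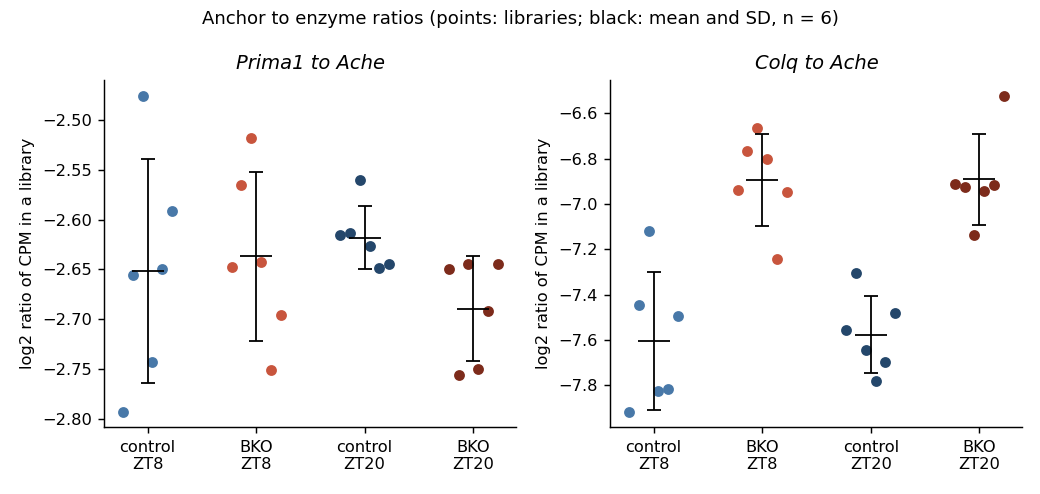
Log2 ratio of the CPM of Prima1 (left) and of Colq (right) to that of Ache within each library (vertical axes), by genotype and time of collection, with the mean and SD of 6 libraries in black. Prima1 to Ache is lower in ChAT-BKO neurons at ZT20 by 0.07, and Colq to Ache is higher at both times by 0.71 and 0.68.

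Time of day was compared within each genotype. In controls, 0 of 7 genes differed between ZT20 and ZT8 (adjusted p under 0.05 in edgeR) where 0.115% of all genes tested did, and in *ChAT-BKO* neurons 0 of 7 did beside 0.285% of all genes. DESeq2 and limma voom also called 0 of 7 in both, and 0 of 7 had an unadjusted p under 0.05 in either, beside 8.25% and 9.42% of all genes. The time points overlapped in all 7 genes in both genotypes, beside 0.938% and 1.18% of all genes without overlap. These shares are also too small for 0 of 7 to be a result about the 7 genes. *Slc5a7* had the largest estimate of the abundant genes in both, with a log2 fold change of 0.10 in controls (SE 0.101, adjusted p = 0.866 from edgeR) and 0.16 in *ChAT-BKO* neurons (SE 0.104, adjusted p = 0.696 from edgeR). With the length slope described next as a covariate it was higher at ZT20 in controls by 0.137 (95% interval 0.0629 to 0.212, adjusted p = 0.0465 from edgeR), and the estimate in *ChAT-BKO* neurons was 0.104 (adjusted p = 0.227 from edgeR). In controls that setting called 360 of 21738 genes, beside 25 without the covariate, and no other alternative called *Slc5a7*. The difference of the genotype effects between the times was called in 0 of 7 genes and in 0% of all genes by edgeR, with 0 of 7 and 3.9% of all genes under an unadjusted p of 0.05, and in 0 genes by DESeq2 and limma voom.

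**Figure D4:**
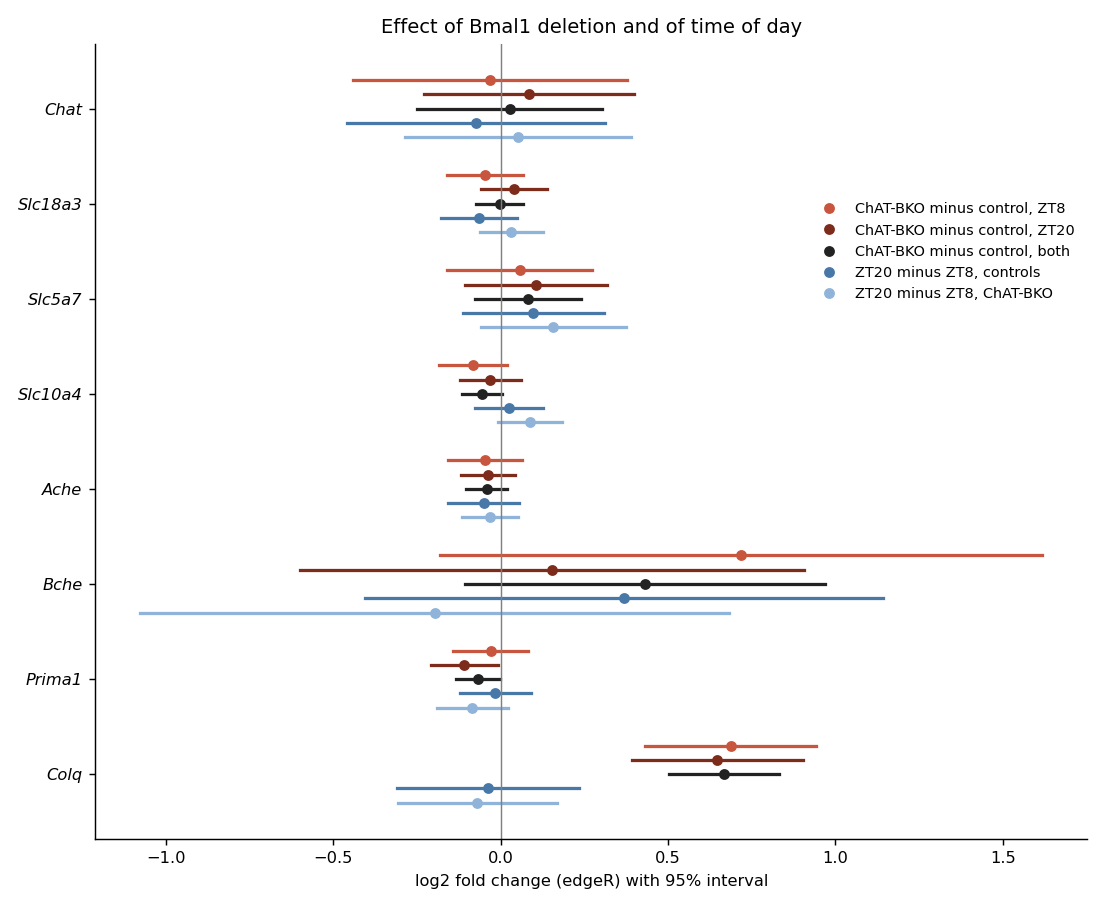
Log2 fold change from edgeR (horizontal axis) with its 95% interval for the 7 genes and Colq (vertical axis), for deletion at ZT8, at ZT20 and over both, and for ZT20 against ZT8 in each genotype. Intervals of Slc18a3, Slc10a4 and Ache lie within 0.2 of 0, those of Chat and Bche are wider, and the 3 genotype intervals of Colq lie above 0.

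The genes differed in how much they varied among mice of 1 group. *Chat* had a within-group SD of 0.401 on the log2 scale, above 99.5% of the 3786 genes with a mean of at least 50 CPM, whose median SD was 0.108. *Slc5a7* was at 0.22 (90.9%), while *Slc18a3* (0.0774), *Prima1* (0.0644), *Ache* (0.0642) and *Slc10a4* (0.0588) were all below that median. *Chat* and *Slc18a3*, on the same strand of 1 locus, therefore stood at opposite sides of it. With group means removed, the level of *Chat* nevertheless moved with *Slc5a7* (r = 0.857, Spearman's rho = 0.856) and with *Slc18a3* (r = 0.8, rho = 0.839), both at a permutation p = 1e-05, the smallest that 100000 permutations can give (5e-05 adjusted over 15 pairs, n = 24). Without the 2 libraries farthest out the r was 0.852 and 0.8. These p-values are against no correlation, and genes outside the set, listed below, reached r = 0.969 to 0.976 with *Chat*. The share of all genes with an r this high was not computed, so these pairs are not particular to the cholinergic genes. *Slc10a4* followed neither *Chat* (r = 0.123, rho = 0.1, permutation p = 0.567) nor *Slc5a7* (r = 0.132, rho = 0.119, permutation p = 0.538).

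A measure of the whole library moved with the same genes. In each library the slope of log2 CPM on log2 exon length was taken over all genes with a length, and it ran from 0.163 to 0.364 in controls at ZT8, 0.190 to 0.304 in *ChAT-BKO* at ZT8, 0.169 to 0.274 in controls at ZT20 and 0.169 to 0.370 in *ChAT-BKO* at ZT20. With group means removed, this slope was correlated with *Chat* at r = 0.945 (rho = 0.937), with *Slc5a7* at r = 0.929 (rho = 0.927) and with *Slc18a3* at r = 0.768 (rho = 0.79), each at a permutation p = 1e-05 (2e-05 adjusted over 6 genes, n = 24). *Ache* (r = 0.541, rho = 0.675, permutation p = 0.00596, adjusted 0.00894) and *Prima1* (r = 0.496, rho = 0.479, permutation p = 0.0141, adjusted 0.0169) followed it less closely, and *Slc10a4* did not (r = 0.0782, rho = 0.163, permutation p = 0.717). Without the 2 libraries with the steepest slopes, r was 0.924 for *Chat*, 0.878 for *Slc5a7* and 0.714 for *Slc18a3*. The library with the highest *Chat*, control replicate 5 at ZT8 (144 CPM), had a slope of 0.3644, and control replicate 2 at ZT8, with the lowest slope, had 52.4 CPM. For each 0.1 of slope, *Chat* was higher by 0.61 and *Slc5a7* by 0.329 on the log2 scale, and *Slc18a3* by 0.0958. After this relation was removed, the within-group SD of *Chat* was 0.135 and that of *Slc5a7* was 0.0835. With the slope as a covariate the log2 fold change of *Chat* with deletion was -0.07 over both times (95% interval -0.162 to 0.0202, adjusted p = 0.664 from edgeR), so its sign turned and it remained uncalled. What sets the slope of a library was not tested. The mean level of glial markers was not correlated with any of the 6 abundant genes at an adjusted p under 0.05 (r from -0.385 to 0.241).

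**Figure D5:**
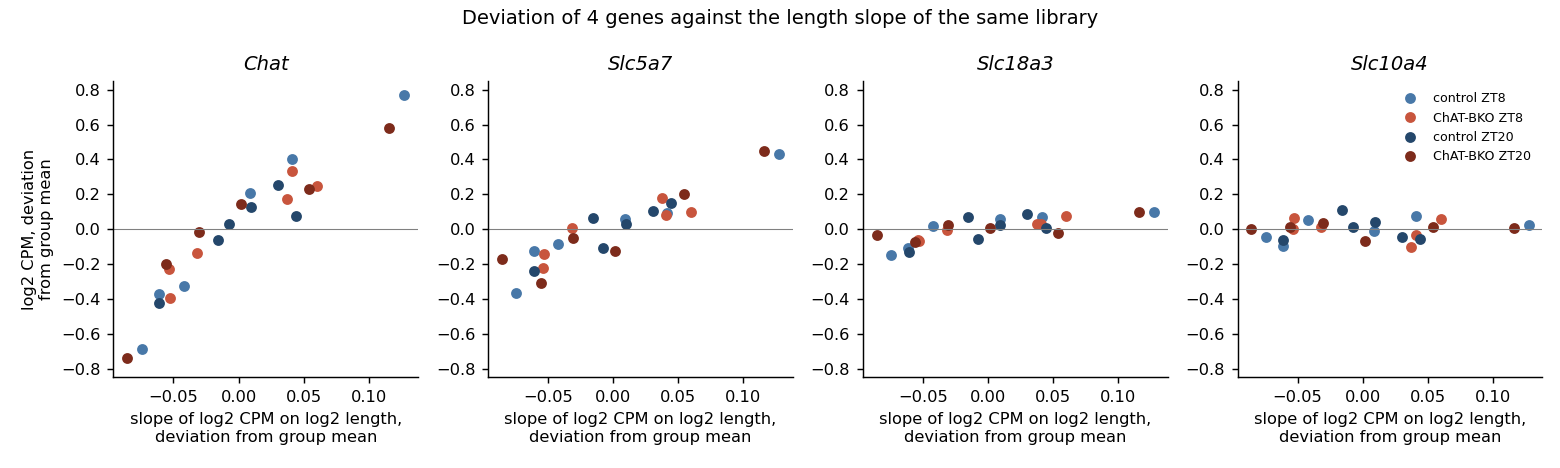
Deviation of log2 CPM from the group mean (vertical axes) against the deviation of the length slope of the same library (horizontal axes) for 4 genes, with 1 point per IP library coloured by group. Chat and Slc5a7 climb with the slope (r = 0.945 and 0.929), Slc18a3 climbs gently (r = 0.768), and Slc10a4 stays level (r = 0.0782).

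Among the 8739 genes with a mean of at least 10 CPM, those whose deviations were most like the members' were listed as a description. *Chat* was most like *Epb41l3* (r = 0.976), *Prepl* (0.97) and *Camk2g* (0.969), *Slc5a7* was most like *Map2* (0.965), *Adam23* and *Map1b* (0.953 each), and *Slc18a3* was most like *Ahnak2* (0.921), *Agfg2* (0.918) and *Cdr2l* (0.913), over 24 libraries. *Epb41l3*, *Map2* and *Map1b* encode proteins of the neuronal cytoskeleton and membrane skeleton. The exons of the 3 genes most like *Slc5a7* cover 15846 to 17907 bases, against 5644 for *Slc5a7* itself. Those most like *Chat* (4703 bases) cover 11919, 5583 and 6401 bases, and those most like *Slc18a3* (2413 bases) cover 14163, 3822 and 3700 bases. The 2 genes of a pair are measured in the same 24 libraries and share their depth. The likeness was lower for *Ache* (*Ltbp3*, r = 0.839, then *Vac14* and *Slc41a3*), *Prima1* (*Tapt1*, 0.761, then *Lss* and *Prr14l*) and *Slc10a4* (*Tmeff2*, 0.745, then *Aldh1b1* and *Nefh*, a neurofilament of large axons).

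The pathways around these genes were read from 4 lists. They hold 17 genes of choline supply, of which 16 were tested, 10 of acetyl-CoA supply, 17 of the vesicular proton pump that drives VAChT, and 6 transcriptional regulators of cholinergic genes. In each of the 6 comparisons edgeR called 0 genes of each list, higher or lower, beside at most 0.741% of all genes, so that 0 calls is no result about these lists. With deletion over both times, the median log2 fold change was -0.00098 for choline supply (8 genes above 0 and 8 below), 0.07 for acetyl-CoA supply (8 and 2), -0.04 for the proton pump (4 and 13) and -0.07 for the regulators (2 and 4), beside -0.0012 for all genes. Of all genes, 10763 were above 0 and 10975 below. Unadjusted p-values under 0.05 were reached by 1 of 16, 4 of 10, 1 of 17 and 1 of 6 of their genes, beside 7.04% of all genes.

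In the acetyl-CoA list, *Acly*, which releases acetyl-CoA in the cytosol, had the highest level at a mean of 1911 CPM, with a fold of 0.985 (adjusted p = 0.996 from edgeR). *Slc25a1*, the citrate exporter of mitochondria, was next at 452 CPM, with a fold of 0.965 (adjusted p = 0.919 from edgeR). *Cs*, citrate synthase, and *Dld*, a subunit of pyruvate dehydrogenase, had the smallest p of this list, each with a fold of 1.05 (adjusted p = 0.564 and 0.627 from edgeR). The most abundant pump subunits were *Atp6v1b2* at 1625 CPM (fold 0.983) and *Atp6v0c* at 1481 CPM (fold 0.972), with adjusted p = 0.978 and 0.901 from edgeR. The pump subunits with the smallest p were *Atp6v1g2*, a brain form of subunit G, with a fold of 1.05, and *Atp6v1g1*, the widespread form, with 0.93 (adjusted p = 0.556 and 0.872 from edgeR).

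For choline supply, *Pnpla6* and *Pcyt1b*, enzymes of phosphatidylcholine breakdown and synthesis, led by level at 140.9 and 134 CPM, with folds of 0.981 and 0.961 (adjusted p = 0.951 and 0.886 from edgeR). *Gpcpd1*, an enzyme that splits glycerophosphocholine, had a fold of 0.952 and *Slc44a5*, of the choline transporter-like family, one of 1.17 (adjusted p = 0.701 and 0.775 from edgeR). Among the regulators, *Lhx4*, a LIM-homeodomain factor of motor neurons, had the smallest adjusted p of the 4 lists. It went from 58.6 ± 2.37 to 51.5 ± 1.78 CPM at ZT8 (SD, n = 6) and from 57.0 ± 2.50 to 53.7 ± 3.62 CPM at ZT20, a fold of 0.91 over both (95% interval 0.865 to 0.957, adjusted p = 0.0757 from edgeR), so it was not called, although DESeq2 called it. *Mnx1*, another motor neuron homeodomain factor, had a fold of 1.05 (adjusted p = 0.901 from edgeR).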

How the data were processed

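RNA was isolated by HA immunoprecipitation of tagged ribosomes, all samples of the experiment on the same day. Libraries were made with a stranded mRNA kit. The authors aligned the reads to mm10 with STAR 2.7.5 and RSEM, per the labels, and deposited expected counts per gene, without normalization, of which 6.11% were not whole. Their own test was DESeq2 1.32.0. The 7 genes, the lists, the covariates and the tests used here were chosen with earlier results of these data known.

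Expected counts were rounded and tested in R 4.3.3 with edgeR 4.0.16 (TMM, quasi-likelihood, two-sided), with Benjamini-Hochberg adjustment over 21738 genes with at least 10 counts summed over 24 IP libraries. A gene is called at an adjusted p under 0.05, and SEs and 95% intervals were derived from p. Log2 CPM had a prior count of 2. The fits were tested on simulated data with a log2 change of 1.5 in 200 genes. They recovered 96.5% to 100% of these, with 2.91% to 7.87% of calls false and 92.5% to 96.5% of intervals holding the truth. Changes as small as the estimates of the abundant members were not simulated. Exact permutation tests and correlations used SciPy 1.17.1. Exon lengths were found by symbol for 18934 genes in the GENCODE annotation of GRCm38, and promoters were taken from RefSeq for all 7 genes. Alternatives were DESeq2 1.42.0, its size factors, other filters, limma 3.58.1 voom with quality weights, replicate number as a block, glial markers or length slope as a covariate, all libraries in 1 fit, and each library left out. Pairs of replicates all differed by more than counting error. Named genes were the 7, *Arntl*, *Colq*, the 2 most abundant and the 2 with the smallest p of each list, and the 3 genes most correlated with each abundant member. The mice are separate animals, and the time course and splicing data of the study were not used here.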

Additional observations from a re-analysis of the deposited data

Results flagged for a closer look

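Of 32 gene and group combinations tested with Dixon's criterion, 2 had a library farther from the other 5 than the 95% limit, and chance gives about 1 in 20. *Slc10a4* was lowest in *ChAT-BKO* replicate 2 at ZT20, at 349.7 CPM, where the gap to the nearest library was 0.656 of the range of the group. *Colq* was highest in *ChAT-BKO* replicate 6 at ZT20, at 10.66 CPM, with a gap of 0.683 of the range, and without that library its log2 fold change at ZT20 was 0.58 (adjusted p = 0.0556 from edgeR).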

How the results depend on the processing

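No result changed sign past a threshold. The count of called members stayed at 0 in the 3 genotype comparisons, in their difference and in the time comparison within *ChAT-BKO* under each alternative, and the time comparison in controls had 1 called member (*Slc5a7*) with the length slope as a covariate. With that covariate, acetyl-CoA supply had 1 called gene at ZT8 and 1 over both times (*Pdhb*), the proton pump had 1 over both (*Atp6v1g2*), and the regulators had 1 at ZT8 and 1 over both (*Lhx4*). DESeq2 called 1 regulator over both times (*Lhx4*), and leaving out single libraries gave 0 to 1, with *Lhx4* called without control replicate 2 or *ChAT-BKO* replicate 6 at ZT20. The causes were not tested. Over all genes, calls rose from 40 to 164 at ZT8, from 50 to 168 at ZT20, from 161 to 404 over both, from 25 to 360 for time in controls and from 62 to 485 in *ChAT-BKO* with the length slope, and to 70, 93, 240, 127 and 218 with DESeq2. Time calls in *ChAT-BKO* were 140 with all libraries in 1 fit and 91 with the glial covariate, and time calls in controls were 15 with that covariate. Same-numbered libraries were not treated as pairs. Their correlations ran from -0.575 to 0.699, with means per pair of groups from -0.327 to 0.236. Values that vary this widely in both directions cannot decide whether the libraries were handled in pairs. With the replicate block, 0 members were called in each comparison, and calls over all genes were 69, 61, 146, 86 and 47. Depth limits *Bche*, with 1 to 17 counts per library, and the single input limits every enrichment.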
